A study of Mus musculus with 9 samples.

Results

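Ovaries lacking both liver X receptors (DKO) were compared with wild-type ovaries (WT) over 12921 protein-coding genes. These are all protein-coding genes with an RPKM (reads per kilobase of exon, scaled by a library size) of at least 0.5 in at least 3 of the 6 WT and DKO libraries, out of 21998 protein-coding genes and 54838 genes of every class in the table. The ovaries came from adult mice 40 h after pregnant mare serum gonadotropin (PMSG), which drives follicle growth. Total RNA was sequenced in 3 libraries of each genotype. WT carries neither a knockout nor a transgene by its label, and DKO is labelled DKO LXR. A further group of 3 libraries is labelled as the same knockout with a transgene named TG-AMH-LXRb (DKO_TG). Amh is expressed by granulosa cells, and the labels give neither the promoter of the transgene nor the exons deleted in the knockout. All 3 groups received PMSG. Whether the libraries stem from different animals is not stated in the labels, and each p-value measures the spread between these libraries, which may be technical.

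The liver X receptors LXRa (Nr1h3) and LXRb (Nr1h2) are nuclear receptors that bind oxysterols and, as heterodimers with retinoid X receptors, switch on genes of sterol export and lipid synthesis. They also restrain inflammatory gene expression in macrophages. In the ovary they are expressed in granulosa, theca and luteal cells as well as in resident leukocytes. In bulk tissue a lower level of a marker gene can come from fewer cells of that type or from less RNA per cell, and these cannot be told apart here. Beside the sterol genes, a whole-ovary comparison reads RNA processing, translation, energy metabolism, leukocytes and the somatic and germ cells of the follicle.

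The targeted genes were lower in DKO. Nr1h3 was at 5.47, 4.12 and 4.45 RPKM in WT replicates 1, 2 and 3 and at 0.590, 1.11 and 0.717 in DKO. Nr1h2 was at 22.5, 18.7 and 15.2 RPKM in WT against 7.79, 6.02 and 5.79 in DKO. The groups did not overlap for either gene, and both were called in limma (log2 change -1.999 ± 0.17 SE, adjusted p = 3.24e-05, and -1.45 ± 0.16 SE, adjusted p = 0.000119). Nr1h3 shares exon bases with a neighbour and is uncertain. In DKO_TG Nr1h2 was at 5.14, 5.96 and 5.90 RPKM (log2 difference from DKO -0.18, adjusted p = 0.621 in limma). The level of Nr1h2 was thus not above DKO in the group labelled with the transgene. Ovarian cell types were present in all 6 libraries: the granulosa gene Inha, a subunit of inhibin, was at 874 to 1979.7 RPKM, and the oocyte coat gene Zp3 was at 4.16 to 17.4 RPKM.

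The WT libraries differed from DKO in the classes of RNA they held, and this difference coincides with genotype. Genotype and RNA class therefore cannot be told apart here. Malat1, a nuclear non-coding RNA, was at 1.67 to 11.1 RPKM in WT and 177 to 213 in DKO, and protein-coding genes took 75.9% to 78.3% of reads in WT and 80.2% to 83.4% in DKO. The 50 most abundant genes held 14.4% to 16.5% of protein-coding reads in WT and 10.9% to 11.6% in DKO. The library size behind the deposited RPKM was 0.793 to 0.920 of the total reads in WT and 1.04 to 1.11 in DKO. Recovered totals were 48.6 to 57.7 M reads in WT and 46.1 to 59.4 M in DKO. DKO_TG resembled DKO in this respect, with Malat1 at 246 to 279 RPKM. Its libraries were therefore used as a reference that has the knockout label and high Malat1: the levels of the main genes there are given beside their change in DKO. Since DKO_TG has both, it does not separate genotype from RNA class either. DKO_TG against DKO and DKO against WT share the DKO libraries, so their values are set side by side and not correlated.

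Of the 12921 genes, 4068 rose and 2962 fell in DKO (limma on log2(RPKM + 0.5), Benjamini-Hochberg adjusted p under 0.05). These are 31.5% and 22.9% of the genes, against 30.8% and 25.9% of all 18886 genes of every class tested. The 3 WT and 3 DKO libraries did not overlap for 33.5% of the genes in the higher direction and 25.5% in the lower. The median log2 change was 0.06, and 1196 of the called genes rose and 350 fell by more than 2-fold. The first principal component of these 6 libraries separated WT from DKO and held 73.6% of the variance. Calls in either direction took 56.7% of all genes tested, and 59.9% of the protein-coding genes had an unadjusted p under 0.05. DKO_TG against WT gave 29.5% higher and 20.2% lower. With so many calls, a count over a gene list is read below against these shares and against the change of genes of similar level.

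Direction depended on abundance. In the lowest quintile of genes by mean RPKM, 44.3% rose and 7.31% fell, with a median log2 change of 0.34. In the highest quintile, 8.86% rose and 52.9% fell, with a median of -0.40. Exon length and GC content moved with direction too: 38.8% of the quintile with the longest exon sequence rose against 22.1% of the shortest, and 44.3% of the quintile with the lowest GC content rose against 27.6% of the highest. Direction also depended on the scaling of the libraries. The counts of higher and lower genes were 6399 and 1024 when values were scaled to TPM (length-scaled shares of a fixed total) over protein-coding genes, 6137 and 1217 with the plain total of reads, and 2923 and 4519 with equal medians, which moved the median of all genes by 0.37, 0.27 and -0.18. Quantile normalization moved it by -0.12, the exon length and GC correction by -0.14, and that correction with level added by -0.12.

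**Figure D1:**
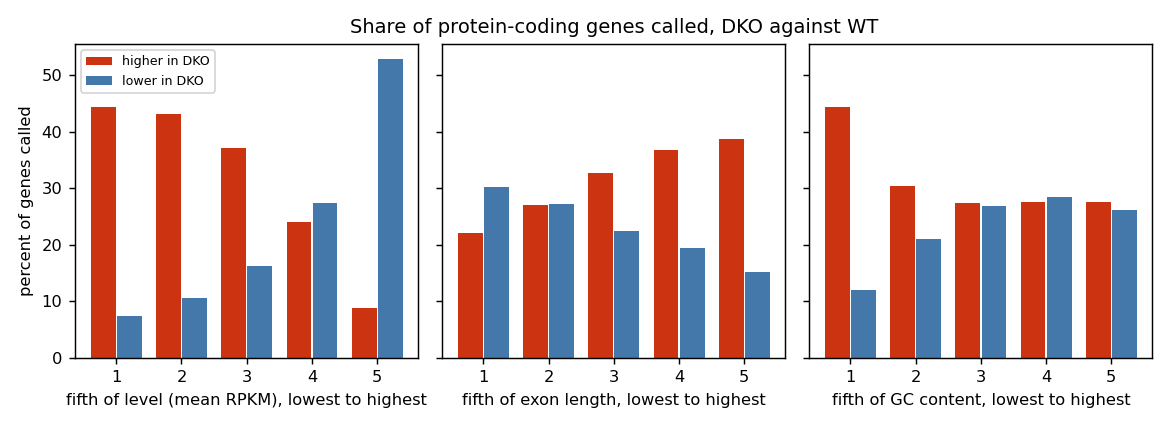
Percent of the 12921 genes called higher (red) or lower (blue) in DKO than in WT, by quintile of mean RPKM over the 6 libraries, of exon length and of GC content. Lower calls rise from 7.31% in the lowest to 52.9% in the highest quintile of level.

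The changes were therefore also counted in 2 stricter ways. A total of 2366 genes (18.3%) rose and 869 (6.73%) fell under every rescaling, meaning that they were called in the same direction as deposited, with TMM, TPM and quantile normalization over protein-coding genes, with the plain total of reads, and with each library corrected for exon length and GC content. TPM and the plain total move the median of all genes by 0.37 and 0.27, the other 3 by only -0.14 to -0.08. This count is therefore stricter for genes that fell than for genes that rose. With exon length, GC content and level regressed out of each library together (the level correction, chosen after the data were seen), 3118 genes (24.1%) rose and 3714 (28.7%) fell, and the median change was between -0.07 and -0.05 in every quintile of level. The level correction also takes away any true change that is common to abundant genes. Lists are given below with their count as deposited and their count under every rescaling, and the main ones also with their median before and after the level correction. Low genes can pass the RPKM filter through the libraries of a single group, so counts of lists that hold such genes in part follow from the filter.

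**Figure D2:**
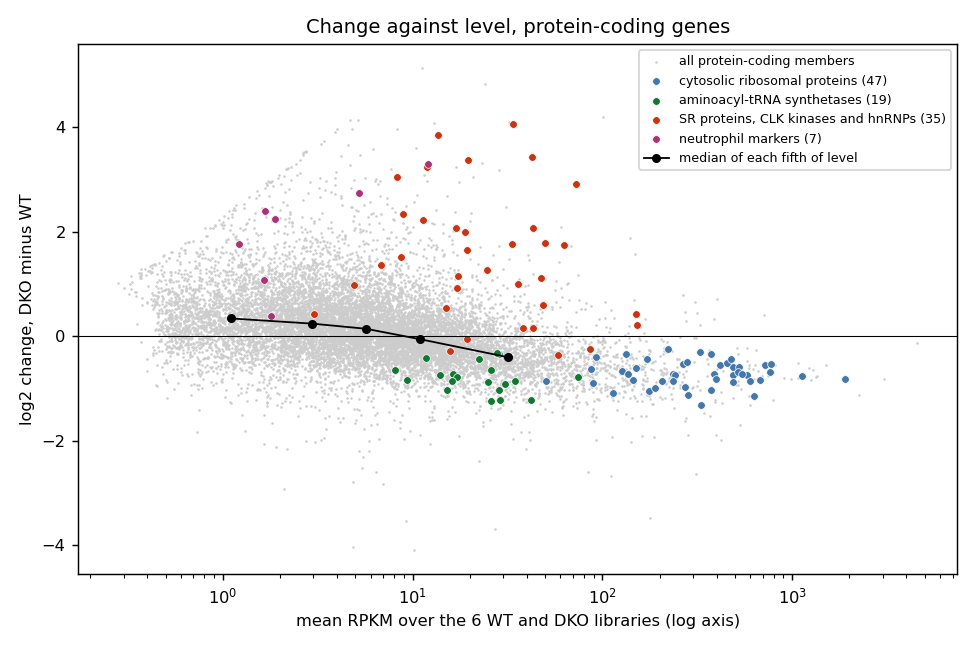
Log2 change of each gene, DKO minus WT, against its mean RPKM over the 6 libraries (log axis), with 4 gene lists in colour and the median of each quintile of level as black points. The 19 aminoacyl-tRNA synthetases and the SR and CLK genes lie off the black line, while the 47 cytosolic ribosomal protein genes follow the decline of abundant genes.

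Most genes of alternative splicing rose. SR proteins and hnRNPs bind exons and introns to steer splice site choice, and CLK kinases phosphorylate SR proteins. Of 35 such genes, 28 rose and 1 fell as deposited, 26 rose under every rescaling, and the median log2 change was 1.36 before and 1.43 after the level correction. Ccnl1, a cyclin of the splicing kinases, was at 2.01, 1.80 and 1.82 RPKM in WT against 22.3, 21.3 and 21.8 in DKO. Its relative Ccnl2 was at 3.29, 3.23 and 3.40 in WT against 75.7, 64.2 and 52.6 in DKO. The SR-related gene Pnisr was at 1.13, 1.38 and 1.41 in WT against 29.0, 22.0 and 26.3 in DKO. Every DKO library was above every WT library by a wide margin for these 3 genes, and the replicates of each group lay close together. In limma the log2 changes were 3.23 ± 0.08 for Ccnl1, 4.07 ± 0.12 for Ccnl2 and 3.86 ± 0.11 for Pnisr (SE, adjusted p = 5.30e-08, 1.19e-07 and 8.99e-08).

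Abundant genes of RNA processing, some of them outside the list, rose too. Rsrp1, an arginine and serine rich protein gene that the list does not hold, was at 6.45, 13.2 and 11.7 RPKM in WT against 207, 193 and 176 in DKO. Srsf5, an SR protein, was at 19.0, 17.4 and 13.8 RPKM in WT against 129, 124 and 131 in DKO. Srsf6 was at 23.01, 21.9 and 22.0 RPKM in WT against 79.5, 75.6 and 78.5 in DKO. The groups were again far apart, with log2 changes of 4.19, 2.91 and 1.78 (adjusted p = 2.09e-06, 4.68e-07 and 6.52e-07 in limma). Hnrnph1 (log2 change 1.74) and the RNA helicase gene Ddx17 (2.09) rose as well, as did Ogt, the enzyme that adds N-acetylglucosamine to nuclear proteins, from 6.78 ± 0.640 to 78.5 ± 10.9 RPKM (SD, n = 3). Pabpn1, the nuclear poly(A) binding protein, rose from 0.537 ± 0.0384 to 15.9 ± 3.09 RPKM, and Ints6l, a relative of an Integrator subunit, from 0.957 ± 0.176 to 25.04 ± 7.65 (SD, n = 3). Ddx17, Pabpn1 and Ints6l are not in the list either. Ccnl1, Ddx17 and Pabpn1 share exon bases with a neighbour and are uncertain.

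These genes differed from WT in both groups that have the knockout label and high Malat1. Their levels in DKO_TG, where Malat1 is also high, were close to those in DKO: Ccnl2 was at 64.8, 64.4 and 68.2 RPKM, Pnisr at 24.1, 24.3 and 24.7 and Srsf5 at 119.7, 121 and 118. Of the 35 genes, 0 were called between DKO_TG and DKO in limma in either direction, against 0.379% and 2.0% of all genes in the higher and lower direction, and the median difference was 0.08. The summed RPKM of the list was 817 to 876 in WT, 1633 to 1744 in DKO and 1725 to 1756 in DKO_TG. The part of the RNA class difference in this result was not tested.

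The core of the spliceosome split. Of 31 genes for snRNP proteins and core factors, 3 rose and 18 fell as deposited, 2 rose and 7 fell under every rescaling, and the median went from -0.43 to -0.31 with the level correction. The median gene of this list lay in the highest quintile of level, where 52.9% of all genes fell. The 58.1% of the list that fell was near that share. Snrnp70, a protein of the U1 particle, was at 21.8, 20.8 and 18.6 RPKM in WT against 64.3, 61.6 and 56.3 in DKO, and Sf3b1, which binds the branch site within the U2 particle, rose with a log2 change of 1.08 ± 0.09 (SE). Partners of Sf3b1 in the same particle moved the other way, with Sf3a1 at -0.76, Sf3b4 at -0.78 and Sf3a2 at -0.92 on the log2 scale (adjusted p from 8.45e-05 to 0.000134 in limma). Sf3b4 and Sf3a2 share exon bases with a neighbour and are uncertain.

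Chromatin modifiers were more often higher. Of 42 genes 23 rose and 5 fell, 14 rose and 1 fell under every rescaling, and the median was 0.41 before and 0.25 after the level correction. The histone H3 lysine methyltransferase gene Kmt2d was at 2.28, 3.07 and 2.95 RPKM in WT against 8.27, 5.54 and 8.63 in DKO, and Kmt2a at 1.15, 1.75 and 1.97 in WT against 8.03, 5.30 and 8.30 in DKO. Both were higher in each DKO library than in any WT library. Tet2, which oxidizes methylated cytosine, rose from 0.525 ± 0.218 to 2.73 ± 0.0193 RPKM (SD, n = 3), and Smarca4, the ATPase of the SWI/SNF remodelling complex, fell from 32.5 ± 1.32 to 18.1 ± 0.624 RPKM (SD, n = 3). The class II deacetylase gene Hdac5 rose with a log2 change of 1.07 and was lower in DKO_TG than in DKO (log2 difference -0.73, adjusted p = 0.0143 in limma). Kmt2a, Tet2, Smarca4 and Hdac5 share exon bases with a neighbour and are uncertain. Among 30 genes of RNA polymerase II and Mediator 9 rose and 10 fell, the 9 being 5 without DKO replicate 3 and the 10 being 6 without DKO replicate 1 or WT replicate 1. Under every rescaling 1 rose and 3 fell. Of 34 nuclear pore and importin genes 5 rose and 14 fell, with 1 and 4 under every rescaling, and of 29 autophagy genes 6 rose and 6 fell, with 4 and 0.

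The aminoacyl-tRNA synthetases, which load amino acids onto their tRNAs, fell together. Of 19 genes 18 fell and 0 rose as deposited, 14 fell under every rescaling, 17 fell after the level correction, and the median log2 change went from -0.85 to -0.65. Lars, the leucyl enzyme, was at 36.2, 29.97 and 31.7 RPKM in WT against 15.7, 19.1 and 18.01 in DKO. Wars, the tryptophanyl enzyme, was at 24.0, 18.6 and 20.3 RPKM in WT against 11.1, 12.6 and 10.3 in DKO. Iars, the isoleucyl enzyme, was at 24.0, 17.1 and 20.0 RPKM in WT against 10.4, 13.01 and 12.9 in DKO. No WT library overlapped a DKO library for these 3 genes, and the log2 changes were -0.87 ± 0.11, -0.86 ± 0.11 and -0.72 ± 0.14 (SE, adjusted p = 0.000221, 0.000325 and 0.00241 in limma). Aars (log2 change -1.22), Farsb (-1.24) and Kars (-0.92) fell too. Aars and Farsb share exon bases with a neighbour and are uncertain. In DKO_TG the list summed to 398 to 417 RPKM, between the 519 to 757 of WT and the 298 to 364 of DKO, and Lars was higher in DKO_TG than in DKO (log2 difference 0.67, adjusted p = 0.0209 in limma).

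Amino acid synthesis and one-carbon metabolism fell with them. Of 23 genes 15 fell and 3 rose as deposited, 13 fell and 3 rose under every rescaling, and the median was -0.76 before and -0.77 after the level correction. Asns, which makes asparagine, was at 68.9, 27.9 and 31.6 RPKM in WT against 12.02, 19.3 and 14.3 in DKO, and Got1, the cytosolic aspartate aminotransferase, was at 89.8, 88.4 and 60.2 in WT against 26.0, 37.5 and 22.8 in DKO. WT replicate 1 was the highest library for Asns, and neither gene overlapped between groups. The log2 changes were -1.37 ± 0.31 and -1.46 ± 0.21 (SE, adjusted p = 0.00587 and 0.000496 in limma). Aldh18a1, which starts proline synthesis, changed by -0.99, and the mitochondrial aminotransferase gene Got2 by -1.06. Mat2a, which makes S-adenosylmethionine, was among the genes that rose (log2 change 1.19). Got2 and Mat2a share exon bases with a neighbour and are uncertain.

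Many genes of both lists are known targets of the transcription factor ATF4, which binds CEBP-ATF composite elements (CARE). The letters TGATGNAA were searched on both strands in windows from 250 bases before to 50 bases after the gene start in RefSeq (GRCm38.p6), which 10089 of the 12921 genes have. The letters were in 2.855% of those windows, in 5 of 12 windows of aminoacyl-tRNA synthetase genes (41.7%) and in 3 of 20 windows of amino acid and one-carbon genes (15%). Among the 5 were Aars and Iars, and Asns was among the 3. They were in 3.14% of windows of genes that rose and 2.97% of genes that fell. The windows of Aars (chr8:111033592-111033891, plus strand), Iars (chr13:49681880-49682179, plus strand) and Asns (chr6:7693160-7693459, minus strand) are shown 5′ to 3′ as examples of members that fell together, with matches in capitals.
Aars: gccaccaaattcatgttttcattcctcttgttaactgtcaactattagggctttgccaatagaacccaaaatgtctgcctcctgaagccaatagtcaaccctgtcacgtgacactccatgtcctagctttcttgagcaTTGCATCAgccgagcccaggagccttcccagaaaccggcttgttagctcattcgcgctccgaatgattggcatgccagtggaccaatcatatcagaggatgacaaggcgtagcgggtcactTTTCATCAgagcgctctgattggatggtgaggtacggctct
Iars: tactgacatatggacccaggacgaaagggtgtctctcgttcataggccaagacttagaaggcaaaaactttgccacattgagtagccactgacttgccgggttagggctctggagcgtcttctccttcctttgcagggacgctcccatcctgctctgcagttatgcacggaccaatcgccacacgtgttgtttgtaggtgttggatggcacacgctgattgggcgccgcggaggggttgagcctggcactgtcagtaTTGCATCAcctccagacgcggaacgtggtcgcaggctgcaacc
Asns: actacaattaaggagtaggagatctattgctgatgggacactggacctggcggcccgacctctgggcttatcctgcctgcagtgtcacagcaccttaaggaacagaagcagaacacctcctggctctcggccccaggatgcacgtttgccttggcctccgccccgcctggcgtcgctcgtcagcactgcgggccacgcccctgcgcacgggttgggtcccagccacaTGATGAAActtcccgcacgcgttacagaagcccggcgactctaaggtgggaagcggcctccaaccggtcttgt
Relative to the gene start, the matches begin at -112 and 9 in Aars, at 7 in Iars and at -23 in Asns.

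Cytosolic ribosomal protein genes fell, but few of these calls held when abundance was taken into account. Of 47 genes 37 fell and 0 rose as deposited with a median of -0.73, while 3 fell under every rescaling and the median after the level correction was -0.01. The lowest log2 change among the 47 genes was -1.31. Rpl29, a ribosomal protein gene that is not among the 47, fell further. It was at 149, 148 and 137 RPKM in WT against 21.0, 27.4 and 22.3 in DKO, with 23.3, 22.7 and 22.8 in DKO_TG. Its log2 change was -2.60 ± 0.11 (SE) and -2.12 after the level correction (adjusted p = 5.79e-07 and 1.87e-06 in limma). Rpl14 was at 396, 324 and 362 RPKM in WT against 143, 228 and 190.2 in DKO, without overlap, and its log2 change of -0.97 became -0.30 after the level correction (adjusted p = 0.0661 in limma), a value that was not called. Ribosomal protein genes have many processed pseudogenes that can take or lend reads, and Rpl29 and Rpl14 are uncertain for that reason. Of 33 translation factor genes 25 fell and 1 rose, with 11 and 1 under every rescaling. The gene that rose was the RNA helicase gene Eif4a2, at 31.4 ± 4.41 RPKM in WT and 105 ± 13.6 in DKO (SD, n = 3), and Eif3b, a scaffold of initiation, fell from 88.9 ± 16.1 to 37.0 ± 4.73 RPKM (SD, n = 3). Eif4a2 shares exon bases with a neighbour and is uncertain. Of 32 mitochondrial ribosomal protein genes 20 fell, among them Mrpl16 (log2 change -1.06). That count was 6 under every rescaling, 12 without DKO replicate 3 or WT replicate 1 and 13 without DKO replicate 1, and the median went from -0.49 to -0.35 with the level correction.

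Lists of energy metabolism held many lower genes and differed in how much remained after the level correction. The median gene of each of these lists and of the proteasome lay in the highest quintile of level, where 52.9% of all genes fell. Complex I of the respiratory chain, which takes electrons from NADH, had 28 of 35 genes lower and 0 higher, 15 lower under every rescaling, and medians of -0.74 before and -0.40 after the correction. Its subunit gene Ndufa12 was at 86.7, 53.3 and 53.0 RPKM in WT against 12.1, 22.9 and 17.9 in DKO, and Ndufa10 was at 57.2, 43.5 and 44.7 in WT against 18.8, 22.9 and 17.9 in DKO. Neither overlapped between groups (log2 change -1.84 ± 0.25 and -1.26 ± 0.14 SE, adjusted p = 0.000426 and 0.000117 in limma). ATP synthase and cytochrome oxidase had 20 of 24 lower, 3 under every rescaling, and medians of -0.79 and -0.24. The tricarboxylic acid cycle had 17 of 20 lower, 8 under every rescaling, and medians of -0.43 and -0.19. Ogdh, the oxoglutarate dehydrogenase, led that list at 102, 82.5 and 82.1 RPKM in WT against 36.6, 32.4 and 33.2 in DKO, with 41.4, 39.5 and 39.3 in DKO_TG, and kept a log2 change of -0.91 after the correction (-1.37 before it).

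In glycolysis and the hypoxia response 12 of 24 genes fell and 4 rose, with 6 and 3 under every rescaling. The median was -0.35 as deposited, and 0.01 with TPM, which raises all genes. Among those that fell, Hk1, a hexokinase, was at 14.7, 12.2 and 12.9 RPKM in WT against 6.58, 6.75 and 6.38 in DKO, and Pkm, the pyruvate kinase, at 295, 200.3 and 222 in WT against 73.4, 84.5 and 86.8 in DKO. The groups were separate for both genes, with log2 changes of -0.96 ± 0.10 and -1.53 ± 0.15 (SE, adjusted p = 8.04e-05 and 6.69e-05 in limma). Both share exon bases with a neighbour and are uncertain, and Pkm has processed pseudogenes. Fatty acid oxidation had 11 of 23 lower and 2 higher, 3 and 2 under every rescaling, with medians of -0.32 before and -0.08 after the level correction. Glutathione and antioxidant genes had 19 of 30 lower and 2 higher, 3 and 1 under every rescaling, with medians of -0.55 and -0.15, and the 2 were 1 without DKO replicate 1 or 3 or WT replicate 2 or 3. Among the latter the thioredoxin-dependent peroxidase gene Prdx3 fell from 243 ± 42.9 to 123 ± 29.8 RPKM and Gclc, the enzyme that limits glutathione synthesis, rose from 15.4 ± 0.736 to 24.9 ± 6.81 (SD, n = 3). The proteasome had 28 of 31 lower, 15 under every rescaling, with medians of -0.64 and -0.27. Its regulatory subunit gene Psmd2 was at 111, 86.0 and 95.4 RPKM in WT against 48.0, 52.8 and 49.7 in DKO and did not overlap between groups (log2 change -0.94 ± 0.11 SE, adjusted p = 0.000148 in limma).

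**Figure D3:**
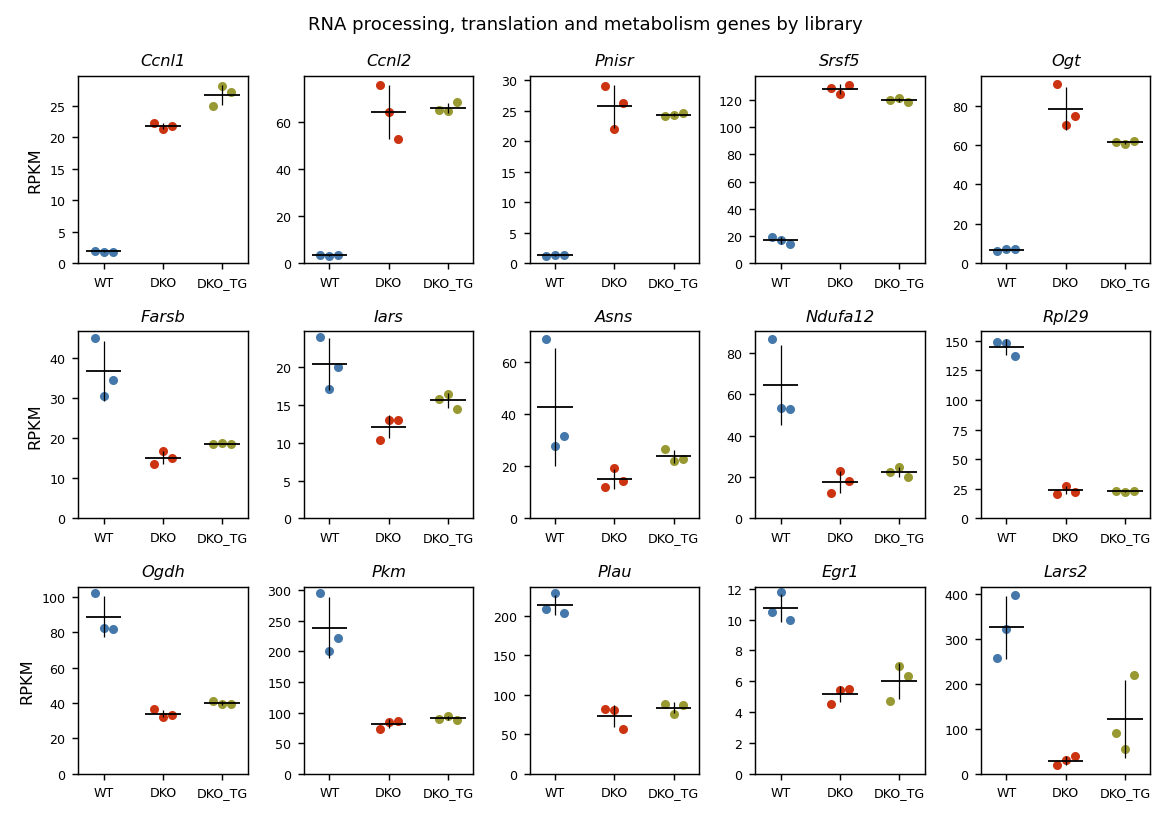
RPKM of 15 genes of RNA processing, translation, metabolism and related functions in each library of WT, DKO and DKO_TG; points are libraries, horizontal bars means and vertical bars SD (n = 3). In the top row DKO and DKO_TG lie together far above WT, as for Srsf5 at 124 to 131 and 118 to 121 RPKM against 13.8 to 19.0.

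Secretory and structural lists also had lower calls, and their median genes lay in the highest quintile of level, where 52.9% of all genes fell. In ER translocation and folding 21 of 32 fell and 0 rose, in COPI and COPII coats 20 of 29 fell and 1 rose, and in N-glycosylation 15 of 27 fell and 1 rose. In lysosomal enzymes and the V-ATPase 20 of 35 fell and 1 rose, and the 20 were 13 without DKO replicate 3, while the 1 was 2 without DKO replicate 3 or WT replicate 2. Under every rescaling the lower counts of these 4 lists were 6, 6, 9 and 10. Calr, the ER chaperone calreticulin, was at 606, 535 and 570.0 RPKM in WT against 240.2, 315 and 269.8 in DKO, and Copz1, a COPI subunit, at 61.8, 49.4 and 53.1 in WT against 28.9, 31.7 and 28.4 in DKO. No library of DKO reached the lowest of WT for either gene (log2 change -1.06 and -0.87). After the level correction the medians of these 4 lists were between -0.31 and -0.08. Actin genes had 25 of 36 lower and 0 higher, and tubulins and motors 20 of 27 lower and 1 higher (0 without DKO replicate 1 or 2 or WT replicate 2 or 3), with 9 lower under every rescaling in each and medians of -0.21 and -0.35 after the level correction. Tubb3, a beta-tubulin known from neurons, was at 42.0, 19.9 and 23.1 RPKM in WT against 5.63, 6.502 and 8.63 in DKO, with 19.4, 17.4 and 17.0 in DKO_TG, and was higher in DKO_TG than in DKO (log2 difference 1.33, adjusted p = 0.0404 in limma). Mapre1, which binds growing microtubule ends, fell from 32.2 ± 2.90 to 17.9 ± 1.02 RPKM, and the non-muscle myosin gene Myh9 from 32.3 ± 0.997 to 19.8 ± 0.770 (SD, n = 3).

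In the extracellular matrix 18 of 36 collagen and basement membrane genes fell and 2 rose, with 4 and 2 under every rescaling. The median gene of this list lay in the highest quintile of level, where 52.9% of all genes fell. The 50% of the list that fell was no more than that share. The 18 were 11 without DKO replicate 3 or WT replicate 2 and 9 without WT replicate 3, and the 2 were 4 without DKO replicate 2 and 1 without WT replicate 1. Col6a2, of the microfibril collagen, was at 68.9, 70.1 and 78.8 RPKM in WT against 34.8, 35.1 and 39.8 in DKO, with no overlap (log2 change -0.98 ± 0.11 SE, adjusted p = 0.000127 in limma). Plau, the urokinase that starts plasmin formation around follicles, was at 209, 228 and 204 RPKM in WT against 81.4, 80.3 and 56.6 in DKO, and Adamts10, a protease of microfibrils, at 2.13, 2.77 and 2.45 in WT against 21.8, 16.6 and 17.8 in DKO. Plau was lower and Adamts10 higher in every DKO library (log2 change -1.56 ± 0.15 and 2.70 ± 0.14 SE, adjusted p = 6.49e-05 and 1.55e-06 in limma). In DKO_TG both were near DKO, at 83.5 and 17.0 RPKM on average. Among 23 matrix proteases and inhibitors 8 fell and 4 rose, the 4 being 7 without DKO replicate 2.

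Fcgr4, Cxcl13 and Cd300e, genes of leukocytes or of their attraction, were among those with the largest increases. Fcgr4, an activating Fc receptor of monocytes, macrophages and neutrophils, was at 1.98, 1.41 and 4.02 RPKM in WT against 15.4, 106 and 63.9 in DKO, with 2.84, 1.94 and 1.902 in DKO_TG. Cxcl13, the chemokine that draws B cells, was at 0.247, 0.389 and 0.792 in WT against 3.72, 54.0 and 84.8 in DKO, with 0.535, 0.419 and 0.140 in DKO_TG. The myeloid receptor gene Cd300e was at 0.0314, 0.0107 and 0 in WT against 2.50, 16.9 and 9.35 in DKO, with 0.118, 0 and 0.106 in DKO_TG. Cd300e passed the RPKM filter through DKO alone. DKO lay above both other groups for all 3 genes, and DKO replicate 1 was the lowest of its group by a wide margin. The log2 changes against WT were 4.11 ± 0.62, 4.83 ± 0.94 and 3.96 ± 0.52 (SE, adjusted p = 0.000723, 0.00266 and 0.000326 in limma). The differences of DKO_TG from DKO were -4.15, -4.99 and -3.81 (adjusted p = 0.0176, 0.0361 and 0.0143 in limma). With limma-voom on recovered reads Cxcl13 was not called against WT (adjusted p = 0.0531). Malat1 was high in both knockout groups (177 to 213 and 246 to 279 RPKM), and its part in these values was not tested.

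Among 7 neutrophil markers that passed the RPKM filter, of 14 listed, 5 rose and 0 fell, 4 of them under every rescaling. S100a9, a calcium-binding protein that neutrophils hold in large amounts, was at 1.00, 1.11 and 0.793 RPKM in WT against 3.97, 11.9 and 53.1 in DKO, with 1.37, 1.75 and 1.42 in DKO_TG. Csf3r, the receptor of the neutrophil growth factor, was at 0.321, 0.173 and 0.315 in WT against 1.54, 3.08 and 1.898 in DKO, with 0.738, 0.548 and 0.679 in DKO_TG. Csf3r passed the filter through DKO alone, so the count of higher markers in part follows from the filter. DKO replicate 3 held by far the most S100a9, while Csf3r was highest in DKO replicate 2, and neither gene overlapped with WT (log2 change 3.297 ± 0.71 and 1.76 ± 0.20 SE, adjusted p = 0.00438 and 0.000161 in limma). Retnlg and S100a8 were likewise highest in DKO replicate 3, with log2 changes of 2.40 and 2.74. The 7 genes summed to 2.92 to 4.88 RPKM in WT, 9.77 to 106 in DKO and 3.61 to 4.46 in DKO_TG. Among the markers that did not pass, the granule genes Mpo, Elane and Mmp8 were at most 0.0631 RPKM in WT and reached 0.1295, 0.124 and 0.567 in DKO replicate 3. The surface marker Ly6g was at 0 in WT and at 0.0207 to 0.276 in DKO.

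Of 5 B and plasma cell genes that passed the filter, 3 rose. Jchain, which joins polymeric immunoglobulin, was at 4.59, 6.31 and 6.99 RPKM in WT against 17.7, 16.0 and 27.7 in DKO, with 4.03, 9.19 and 9.69 in DKO_TG. Cd79b, of the B cell receptor, was at 0.885, 0.328 and 0.434 in WT against 1.47, 4.82 and 3.17 in DKO. Both were higher in every DKO library (log2 change 1.68 ± 0.33 and 1.72 ± 0.34 SE, adjusted p = 0.00276 and 0.00288 in limma). The B cell markers Ms4a1 and Pax5, which did not pass the filter, were at or below 0.178 RPKM in every WT and DKO library. T and NK cell markers had 2 of 22 genes that passed the filter and 0 called in limma (0 at an unadjusted p under 0.05): Lck was at 1.59, 2.11 and 1.39 RPKM in WT against 1.69, 2.51 and 1.49 in DKO, and Nkg7 at 0.979, 0.905 and 0.883 in WT against 0.983, 1.02 and 1.00 in DKO. Lck shares exon bases with a neighbour and is uncertain. T cell receptor and immunoglobulin constant genes have classes of their own in the annotation and so are not among the 12921: Trbc1 was at 1.13 to 1.40 RPKM in WT and 1.75 to 2.28 in DKO, Trbc2 at 1.56 to 1.74 and 2.09 to 3.08, both without overlap, and Trac overlapped at 0.747 to 1.59 and 0.654 to 1.43. The immunoglobulin genes Ighm (4.79 to 5.38 in WT and 9.57 to 31.7 in DKO) and Igkc (77.1 to 98.6 and 227 to 610 RPKM), did not overlap either. Dendritic cell markers had 3 of 5 higher and 0 lower, 1 under every rescaling and 1 after the level correction. Batf3, a factor of dendritic cells that present to CD8 T cells, was at 0.178, 0.406 and 0.311 in WT against 1.10, 2.97 and 2.08 in DKO (log2 change 1.61 ± 0.28 SE, adjusted p = 0.00150 in limma). Batf3 passed the filter through DKO alone. Of the dendritic cell markers that did not pass, Cd209a was at 0.359 to 0.798 RPKM in WT and 0.0193 to 0.0370 in DKO. Flt3 (0.0177 to 0.0507 and 0.0916 to 0.171), Ccr7 (0.0837 to 0.110 and 0.247 to 0.2865) and Irf4 (0.0623 to 0.0866 and 0.232 to 0.352) were higher in DKO without overlap. Xcr1 and Siglech overlapped between WT and DKO. Mast cell markers had 1 of 7 higher and 1 lower, the former being 0 without any of the WT replicates and the latter 0 without DKO replicate 1 or 3 or WT replicate 1 or 2, and their sum was 17.3 to 22.2 RPKM in WT and 11.7 to 32.2 in DKO. The 20 macrophage markers summed to 236 to 302 RPKM in WT, 329.7 to 631 in DKO and 209 to 264 in DKO_TG, so they moved with the genes above, and their part in these results was not tested.

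Of 20 genes of complement and coagulation 4 rose and 1 fell in DKO, 3 and 1 under every rescaling, a share of higher calls below the 31.5% of all genes. C4b, of the classical pathway, was at 5.15, 3.52 and 4.25 RPKM in WT against 9.44, 17.8 and 24.2 in DKO, with 3.52, 3.13 and 2.35 in DKO_TG, giving a log2 change of 1.79 ± 0.30 (SE), called at adjusted p = 0.00128 in limma, and a difference of -2.25 between DKO_TG and DKO (adjusted p = 0.0143 in limma). Vwf, the clotting factor of endothelium and platelets, was at 1.38, 0.774 and 0.966 in WT against 2.18, 1.98 and 2.29 in DKO, with 0.813, 0.806 and 0.917 in DKO_TG, and F2r, the thrombin receptor, at 17.5, 17.0 and 17.9 in WT against 7.03, 9.75 and 5.26 in DKO, with 9.29, 9.46 and 8.11 in DKO_TG. C4b and Vwf were highest in DKO, and F2r was low in both knockout groups. Of the 20 genes 5 were lower in DKO_TG than in DKO.

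Interferon-stimulated genes rose without any that fell. Of 31 genes 19 rose as deposited, 9 under every rescaling and 14 after the level correction, which left 2 lower, and the median was 0.62 before and 0.46 after it. The count fell to 10 with quantile normalization and 12 with equal medians. Xaf1, an interferon-induced apoptosis gene, was at 1.52, 1.07 and 1.32 RPKM in WT against 9.26, 9.35 and 6.84 in DKO, with 8.99, 4.54 and 5.83 in DKO_TG. Stat2, which carries the type I interferon signal, was at 5.80, 5.82 and 5.74 in WT against 9.45, 9.68 and 8.86 in DKO, with 10.3, 7.87 and 9.27 in DKO_TG. Oas2, a sensor of double-stranded RNA, was at 0.186, 0.306 and 0.181 in WT against 2.19, 1.54 and 1.44 in DKO, with 1.76, 0.563 and 0.907 in DKO_TG. Oas2 passed the RPKM filter through DKO alone. The 3 genes were higher in every DKO library than in WT (log2 change 2.31 ± 0.23, 0.64 ± 0.10 and 1.61 ± 0.26 SE, adjusted p = 6.72e-05, 0.000859 and 0.000984 in limma), and all 3 were also above WT in each DKO_TG library. Ifi202b, an interferon-inducible DNA-binding protein gene, is not in the list. This gene was at 0.0257, 0.145 and 0.134 RPKM in WT against 11.97, 10.8 and 7.77 in DKO, with 7.23, 17.9 and 8.54 in DKO_TG (log2 change 4.13 ± 0.30 SE, adjusted p = 1.31e-05 in limma). It was nearly absent from WT and present at like levels in both knockout groups, and it passed the RPKM filter through DKO alone. The median difference of the list between DKO_TG and DKO was -0.51, with 2 genes called lower in limma. Between DKO_TG and WT the median difference of the list was 0.06, with 4 genes called higher and 2 lower. The summed RPKM of the list overlapped between the groups, at 515 to 583 in WT and 519 to 604 in DKO.

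Genes of this list respond to interferon through the ISRE, searched here as GAAA, any 2 bases and GAAA on both strands in the windows described above. The letters were in 15 of 24 windows of interferon-stimulated genes (62.5%) and in 3.93% of all windows. They were in 7 of 12 windows of the list's genes that rose and 8 of 12 of those not called. The window of Stat2 (chr10:128270248-128270547, plus strand), a gene of the list called under every rescaling, holds a match that begins at -222 from the gene start and is shown in capitals.
Stat2: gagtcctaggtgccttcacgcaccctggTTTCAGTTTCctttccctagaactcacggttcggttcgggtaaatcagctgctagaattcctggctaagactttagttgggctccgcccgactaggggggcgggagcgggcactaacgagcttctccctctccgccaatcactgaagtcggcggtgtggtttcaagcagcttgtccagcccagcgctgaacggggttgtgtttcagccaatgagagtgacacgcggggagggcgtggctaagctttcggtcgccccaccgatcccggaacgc

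Antigen presentation genes had 8 of 15 higher and 0 lower, 4 under every rescaling, and medians of 0.58 before and 0.86 after the level correction. The 8 were 4 without DKO replicate 1, DKO replicate 2 or WT replicate 2 and 5 without WT replicate 1. H2-K1, of MHC class I, was at 126, 102 and 107 RPKM in WT against 192, 208 and 148 in DKO, with 131, 99.5 and 106 in DKO_TG. H2-M3, of the non-classical class I, was at 5.51, 5.83 and 6.12 in WT against 11.5, 11.1 and 14.7 in DKO, and Ciita, the master regulator of class II, at 0.309, 0.260 and 0.525 in WT against 1.56, 1.28 and 0.962 in DKO. All 3 were higher in every DKO library (log2 change 0.70 ± 0.17, 1.03 ± 0.12 and 1.03 ± 0.17 SE, adjusted p = 0.00705, 0.000150 and 0.00109 in limma). In DKO_TG 5 genes of the list were lower than in DKO, among them H2-DMb1, which loads peptides onto class II (-1.12, adjusted p = 0.0338 in limma). MHC genes resemble each other and Ciita shares exon bases with a neighbour, so their values are uncertain.

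**Figure D4:**
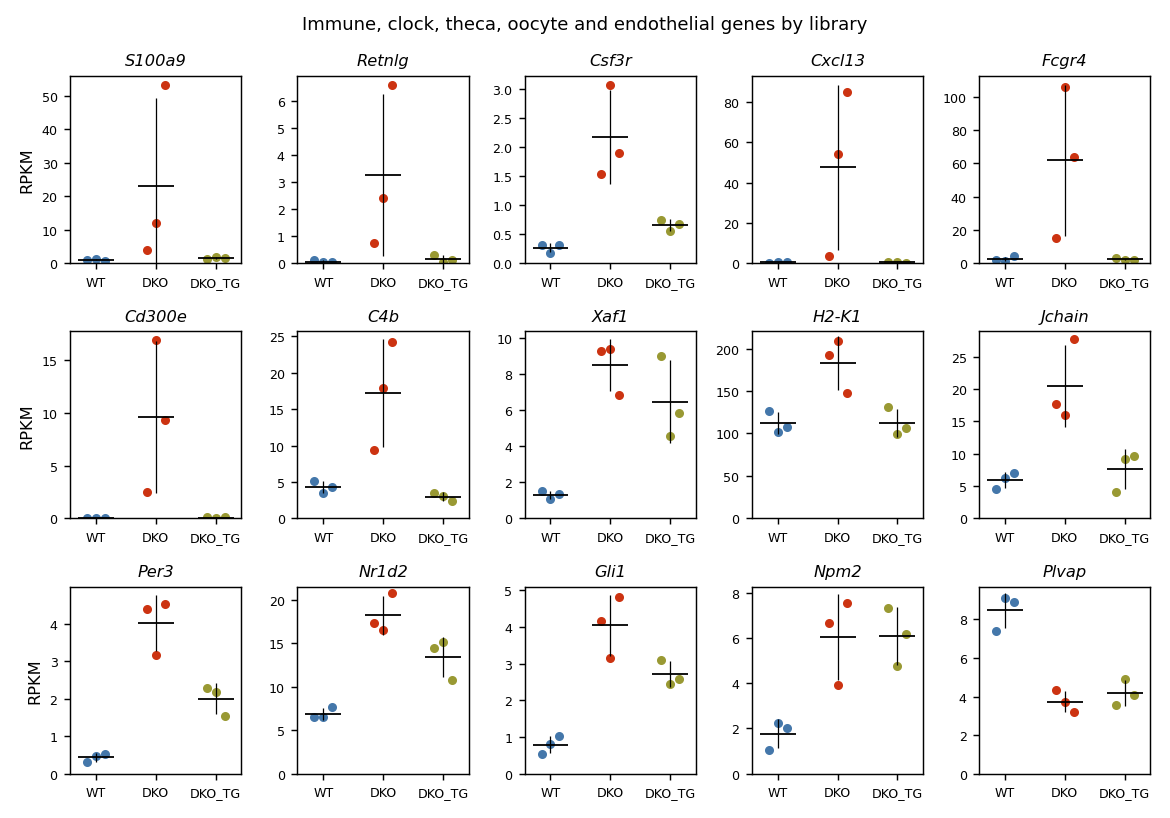
RPKM of 15 genes of leukocytes, interferon response, clock, theca, oocyte and endothelium in each library of WT, DKO and DKO_TG; points are libraries, horizontal bars means and vertical bars SD (n = 3). Fcgr4, Cxcl13 and Cd300e are high in DKO alone, while Plvap (3.21 to 4.32 and 3.55 to 4.89 RPKM) overlaps between DKO and DKO_TG.

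In the circadian clock, CLOCK and its partner ARNTL drive the repressors Per and Cry and the D-box factors, which feed back in a daily cycle. Of 17 genes 8 rose and 1 fell (2 without DKO replicate 2), and the same numbers were called under every rescaling. Per3 was at 0.298, 0.468 and 0.536 RPKM in WT against 4.39, 3.16 and 4.52 in DKO, with 2.28, 2.18 and 1.53 in DKO_TG. Nr1d2, which represses Arntl, was at 6.51, 6.48 and 7.65 in WT against 17.3, 16.5 and 20.8 in DKO, with 14.4, 15.1 and 10.8 in DKO_TG. Dbp, a D-box factor, was at 4.58, 3.85 and 2.92 in WT against 8.94, 8.10 and 10.8 in DKO, with 4.55, 5.30 and 3.57 in DKO_TG. For all 3 genes every DKO library was above every WT library, with DKO_TG lower than DKO (log2 change against WT 2.27 ± 0.18, 1.34 ± 0.14 and 1.2005 ± 0.18 SE, adjusted p = 1.88e-05, 0.000114 and 0.000731 in limma). The DKO_TG difference from DKO was called for Per3 (-0.86, adjusted p = 0.0470 in limma) and Dbp (-0.98, adjusted p = 0.0351) and not for Nr1d2 (-0.43, adjusted p = 0.188). Tef, Per2, Ciart and Per1 rose as well (log2 changes 0.97, 1.198, 0.95 and 0.54), and Cry2 rose by 0.56. Bhlhe40, a repressor, changed by -0.79, while Clock (0.17), Arntl (-0.21) and Nr1d1 (-0.20) were not called. The median of the list was 0.17 as deposited, beside 0.06 over all genes, and -0.13 after the level correction, beside -0.07. Dbp, Tef, Cry2, Bhlhe40, Arntl and Nr1d1 share exon bases with a neighbour and are uncertain.

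The D-box, searched as TTATGTAA on both strands, was in 0.684% of all windows and in 1 of 15 windows of clock genes, that of Per3. The E-box CACGTG, the element of CLOCK and ARNTL, was in 11.4% of all windows and in 4 of 15 of the clock genes, 3 of them among the 7 that rose and have a window. The window of Per3 (chr4:151044616-151044915, minus strand) holds D-box letters that begin at -205 and -158 from the gene start, shown in capitals because Per3 had the largest change of the list.
Per3: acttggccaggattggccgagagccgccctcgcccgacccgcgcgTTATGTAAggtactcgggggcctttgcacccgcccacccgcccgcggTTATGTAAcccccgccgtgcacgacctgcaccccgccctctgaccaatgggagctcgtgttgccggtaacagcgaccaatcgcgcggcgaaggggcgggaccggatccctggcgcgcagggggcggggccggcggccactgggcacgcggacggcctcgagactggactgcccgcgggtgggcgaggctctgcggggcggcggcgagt

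Cell types of the follicle and stroma differed in smaller numbers of genes. Theca and interstitial markers had 6 of 14 higher and 2 lower, with 5 and 0 under every rescaling, and medians of 0.13 before and 0.40 after the level correction (-0.05 with equal medians, which lower all genes). The log2 changes ran from -1.57 to 1.82. The summed RPKM of the list went the other way from its median, at 8353 to 12676 in WT, 6377 to 7612 in DKO and 8569 to 9290 in DKO_TG. Gli1, a target of hedgehog signalling, was at 0.546, 0.797 and 1.02 RPKM in WT against 4.17, 3.16 and 4.82 in DKO. It was higher in every DKO library (log2 change 1.82 ± 0.18 SE, adjusted p = 6.66e-05 in limma), and in DKO_TG it averaged 2.71 RPKM. Nr2f2, a nuclear receptor of stroma and theca, rose from 7.95 ± 0.903 to 13.3 ± 2.02 RPKM (SD, n = 3). Gli1 and Nr2f2 share exon bases with a neighbour and are uncertain. Of 18 granulosa markers 4 rose and 1 fell, 1 higher under every rescaling; the 4 were 1 without DKO replicate 1 or 3 and 2 without WT replicate 2, and the 1 was 3 without DKO replicate 3 and 2 without WT replicate 1. The gene called under every rescaling was Slc18a2, a vesicular monoamine transporter gene that the list holds as a granulosa marker, at 2.79, 4.77 and 4.41 RPKM in WT against 29.0, 9.96 and 24.7 in DKO. It shares exon bases with a neighbour and is uncertain.

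Luteal markers varied widely between the DKO libraries. Of 12 genes 2 rose and 1 fell, the 1 being 4 without DKO replicate 1, and 1 rose and 0 fell under every rescaling. Sfrp4, a secreted Wnt inhibitor of luteal cells, was at 235, 610.2 and 516 RPKM in WT against 343, 162 and 5.07 in DKO, with 191, 666 and 284 in DKO_TG. Ptgfr, the prostaglandin F receptor gene through which the corpus luteum regresses, was at 18.4, 63.8 and 70.5 in WT against 73.9, 11.5 and 0.582 in DKO, with 31.5, 89.9 and 45.3 in DKO_TG. The DKO libraries ran from WT levels in replicate 1 to nearly none in replicate 3, and neither gene was called (log2 change -2.63 ± 1.32 and -2.16 ± 1.30 SE, adjusted p = 0.116 and 0.181 in limma). Ptgfr shares exon bases with a neighbour and is uncertain. The list summed to 548 to 1595 RPKM in WT, 245 to 1084 in DKO and 555 to 1503 in DKO_TG. Cdkn1b, an inhibitor of the cell cycle, was at 10.3, 22.9 and 20.0 RPKM in WT against 42.3, 47.8 and 35.6 in DKO and rose (log2 change 1.28 ± 0.26 SE, adjusted p = 0.00306 in limma).

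Oocyte markers had 10 of 22 higher (45.5%) and 0 lower, 5 under every rescaling. Their median gene lay in the quintile of 1.98 to 4.17 RPKM, where 43.2% of all genes rose, a share near that of the list. In that quintile 23.1% of genes rose under every rescaling. The median log2 change was 0.79 for the list and 0.24 for the quintile. Leaving out DKO replicate 1 gave 4 in place of 10, leaving out replicate 2 gave 20, and leaving out replicate 3 or WT replicate 1 gave 3. Zp2, of the zona pellucida, was at 2.31, 5.40 and 5.53 RPKM in WT against 15.6, 6.66 and 13.5 in DKO, with 14.5, 9.94 and 13.1 in DKO_TG, and Gdf9, the growth factor by which the oocyte acts on granulosa cells, at 3.15, 7.68 and 6.23 in WT against 16.4, 7.15 and 16.1 in DKO, with 15.3, 10.8 and 16.0 in DKO_TG. WT replicate 1 was the lowest library, DKO replicate 2 was the lowest of its group, and Gdf9 in that library lay within the WT range (log2 change 1.34 ± 0.37 and 1.14 ± 0.37 SE, adjusted p = 0.0134 and 0.0280 in limma). Over the list, RPKM summed to 42.0 to 85.6 RPKM in WT, 77.2 to 174 in DKO and 120.1 to 165 in DKO_TG.

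Endothelial markers had 13 of 20 lower and 2 higher, 3 and 1 under every rescaling, with 12 lower after the level correction and medians of -0.45 and -0.49. The log2 changes ran from -1.08 to 1.92, so the largest change in the list was an increase. With TPM the 13 were 3 and with the plain total of reads 4, settings that cut the lower calls over all genes from 2962 to 1024 and 1217. Plvap, of the diaphragms of fenestrated vessels, was at 7.40, 9.11 and 8.89 RPKM in WT against 4.32, 3.70 and 3.21 in DKO, with 3.55, 4.89 and 4.10 in DKO_TG. Emcn, a mucin of capillaries and veins, was at 12.5, 10.6 and 10.1 in WT against 6.39, 7.89 and 5.22 in DKO, with 8.20, 7.95 and 8.02 in DKO_TG. Both fell without overlap (log2 change -1.08 ± 0.14 and -0.74 ± 0.14 SE, adjusted p = 0.000320 and 0.00231 in limma) and were called under every rescaling. Pericyte and smooth muscle markers had 5 of 15 lower and 0 higher, the 5 being 3 without DKO replicate 3 or WT replicate 2, with the pericyte proteoglycan gene Cspg4 at 2.79, 2.79 and 2.49 RPKM in WT against 1.59, 1.63 and 1.31 in DKO. In the cumulus and ovulation list Egr1, an early target of the luteinizing hormone signal, fell from 10.8 ± 0.922 to 5.16 ± 0.527 RPKM (SD, n = 3), and 1 of 12 genes rose and 1 fell (the 1 higher being 2 without DKO replicate 3 and 0 without WT replicate 2, the 1 lower 2 without DKO replicate 2).

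Signalling lists held calls in both directions, mostly at shares near or below those of all genes, of which 31.5% rose and 22.9% fell. In the TGF-beta, cAMP, Notch, Wnt and Hippo lists 14.3% to 30% rose, all below the share of all genes. In the same lists 9.68% to 28.6% fell, on either side of that share. The insulin list had 39.3% higher and 17.9% lower. Of 28 genes of insulin, PI3K and mTOR signalling 11 rose and 5 fell, and Rictor, the defining subunit of mTORC2, was at 0.665, 1.07 and 1.05 RPKM in WT against 3.04, 2.38 and 3.14 in DKO (log2 change 1.24 ± 0.14 SE, adjusted p = 0.000149 in limma). Of 31 TGF-beta and BMP genes 8 rose and 3 fell. The BMP target Id3 was at 50.3, 70.4 and 53.7 in WT against 89.8, 102 and 87.1 in DKO, with 57.3, 57.6 and 60.6 in DKO_TG, so that DKO alone stood high, and the inhibitory Smad7 rose by 0.95 on the log2 scale. Of 21 cAMP genes 3 rose and 6 fell: the adenylate cyclase gene Adcy7 was at 1.63, 1.67 and 1.91 RPKM in WT against 4.28, 5.06 and 6.42 in DKO, and Pde4d, which breaks cAMP down, at 1.35, 0.918 and 0.983 in WT against 0.435, 0.475 and 0.452 in DKO, without overlap in either. Pde4d passed the RPKM filter through WT alone. Of 20 Notch genes 6 rose and 3 fell, the 6 being 3 without DKO replicate 1 or WT replicate 1, and Heyl, a Notch target, fell from 18.2 ± 0.505 to 10.2 ± 0.624 RPKM (SD, n = 3). Of 24 Wnt genes 6 rose and 5 fell, the 6 being 3 without DKO replicate 1, with Tcf7l2, a partner of beta-catenin, at a log2 change of 0.85. Of 19 Hippo genes 4 rose and 5 fell, the 5 being 2 without DKO replicate 3 and 3 without WT replicate 1. Under every rescaling the higher and lower counts were 6 and 0 for insulin signalling, 6 and 1 for TGF-beta, 2 and 2 for cAMP, 3 and 2 for Notch, 3 and 1 for Wnt and 4 and 0 for Hippo. Over all genes 18.3% rose and 6.73% fell under every rescaling. EGF and FGF genes had 1 of 18 higher (2 without WT replicate 1) and 1 lower (2 without DKO replicate 2). Gonadotropin and steroid hormone receptors had 1 of 10 higher, which was 0 without DKO replicate 1 or any of the WT replicates, and 1 lower, which was 2 without DKO replicate 3. Of the inhibins, activins and follistatins 0 of 8 were called in limma (1 higher at an unadjusted p under 0.05; 1 higher without WT replicate 2 or 3 and 1 lower without DKO replicate 3).

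Among the largest changes outside these lists, Rgs11, a regulator of G-protein signalling, was at 0.109, 0.159 and 0.167 RPKM in WT against 24.4, 19.6 and 22.6 in DKO, with 8.91, 8.05 and 9.68 in DKO_TG. It was close to absent in WT, and DKO_TG lay between WT and DKO (log2 change against WT 5.13 ± 0.11 SE, adjusted p = 2.70e-08 in limma). Txnip, which binds thioredoxin and responds to glucose, was at 51.5, 58.3 and 69.3 in WT against 256, 205 and 199.7 in DKO, with 107, 119 and 95.8 in DKO_TG, in the same order (log2 change 1.87 ± 0.15 SE, adjusted p = 2.31e-05 in limma). Spaca6, known for sperm and egg fusion, and Snhg11, named as a host gene of small nucleolar RNAs, rose from 0.229 to 8.85 RPKM and from 0.0365 to 7.93 RPKM on average. Rgs11, Spaca6 and Snhg11 passed the RPKM filter through DKO alone. Rgs11, Txnip, Spaca6 and Snhg11 share exon bases with a neighbour and are uncertain.

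Among those that fell, Alas1, which starts heme synthesis, was at 332, 129.8 and 122 RPKM in WT against 19.2, 36.4 and 27.9 in DKO, with 101, 96.3 and 92.6 in DKO_TG. Hspd1, the mitochondrial chaperonin, was at 1016, 757 and 658 in WT against 237, 300.4 and 209 in DKO, with 688, 682 and 654 in DKO_TG. Lrrn3, a neuronal membrane protein gene, was at 10.1, 9.17 and 7.19 in WT against 1.02, 0.885 and 0.637 in DKO, with 4.09, 4.40 and 4.53 in DKO_TG. DKO was below both other groups for all 3 genes, and WT replicate 1 was far above the other WT libraries for Alas1. The log2 changes against WT were -2.67 ± 0.37, -1.69 ± 0.20 and -2.79 ± 0.14 (SE, adjusted p = 0.000464, 0.000175 and 1.76e-06 in limma), and DKO_TG was above DKO by 1.82, 1.45 and 1.86 (adjusted p = 0.0463, 0.0143 and 0.00116 in limma). Other genes were low in both knockout groups: the proton pump gene Atp12a was at 7.39, 31.0 and 20.9 RPKM in WT against 1.08, 0.600 and 0.118 in DKO, with 0.791, 1.58 and 1.83 in DKO_TG, and the somatostatin receptor gene Sstr1 at 1.11, 5.47 and 5.93 in WT against 0.00955, 0.0318 and 0.0149 in DKO, with 0.01002, 0.0589 and 0.0294 in DKO_TG. Psca, a surface antigen of epithelia, went from 6.14, 18.8 and 3.995 RPKM in WT to 0, 0.0189 and 0 in DKO. Psca and Sstr1 passed the RPKM filter through WT alone. Lars2, the mitochondrial leucyl-tRNA synthetase gene, fell from 326 ± 69.9 to 29.2 ± 9.41 RPKM (SD, n = 3), a log2 change of -3.49 ± 0.46 (SE), and Ybx1, a cold shock protein that binds mRNA, from 619 ± 225 to 170.2 ± 76.1 RPKM. The neurofilament gene Nefh fell with a log2 change of -2.82, the adhesion gene Nrcam with -3.54, the lectin receptor gene Asgr1 with -2.53 and the calcium-binding gene Efhd1 with -2.03. Alas1, Hspd1, Atp12a and Efhd1 share exon bases with a neighbour and are uncertain.

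The plot of list medians shows every list with at least 5 genes, except cholesterol synthesis and macrophages. Proliferation lists fell further with the level correction: DNA replication had 17 of 36 lower and 1 higher, 3 and 1 under every rescaling, with medians of -0.32 and -0.48, and the 17 were 11 without DKO replicate 1. Its helicase gene Mcm6 was at 22.8, 23.2 and 27.9 RPKM in WT against 6.24, 7.98 and 12.8 in DKO, without overlap (log2 change -1.46 ± 0.22 SE, adjusted p = 0.000667 in limma). Mitosis genes had 2 of 32 higher and 5 lower, 1 and 0 under every rescaling, and the 5 ran from 1 without DKO replicate 1 or WT replicate 2 to 10 without DKO replicate 3, while leaving out DKO replicate 1 turned the 2 into 4, and leaving out DKO replicate 3, WT replicate 1 or WT replicate 2 turned them into 1. Lipid lists other than sterol synthesis split. ABC and lipid transporters had 3 of 24 higher and 7 lower, 2 and 1 under every rescaling, with the nucleotide exporter gene Abcc5 at 1.53, 1.63 and 1.80 RPKM in WT against 11.8, 8.48 and 9.77 in DKO. Phospholipid and sphingolipid synthesis had 8 of 31 higher and 13 lower, 4 and 5 under every rescaling, with the choline kinase gene Chka at 2.56, 3.01 and 3.29 in WT against 10.02, 14.8 and 8.84 in DKO. Both genes were higher in every DKO library (log2 change 2.28 ± 0.12 and 1.74 ± 0.17 SE, adjusted p = 1.62e-06 and 6.93e-05 in limma), and in DKO_TG they averaged 8.63 and 9.89 RPKM. Chka shares exon bases with a neighbour and is uncertain.

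The remaining lists had few calls or split. N-glycosylation held opposite changes, with Dpm1, which makes the mannose donor, at a log2 change of 1.24 and Alg3, a mannosyltransferase, at -1.61. Fatty acid oxidation held Cpt1c, the brain form of carnitine palmitoyltransferase, at 1.02 and Hadha, of the trifunctional protein, at -0.80. Retinoid metabolism had 7 of 16 higher and 6 lower, 3 and 3 under every rescaling, with Rbp4, the retinol carrier, at 2.68, 1.34 and 2.33 RPKM in WT against 0.392, 0.490 and 0.306 in DKO, without overlap. Rbp4 passed the RPKM filter through WT alone. DNA repair had 5 of 36 higher and 10 lower, 3 and 0 under every rescaling, the 5 being 3 without DKO replicate 3, with Rad52, a recombination protein gene, at a log2 change of 1.21. Peroxisome biogenesis had 4 of 18 higher and 2 lower, the 4 being 2 without DKO replicate 1, WT replicate 2 or WT replicate 3 and the 2 being 1 without DKO replicate 3, WT replicate 1 or WT replicate 2. Steroid synthesis had 7 of 17 lower and 1 higher, 1 and 1 under every rescaling (2 higher as deposited without WT replicate 1), and 2 lower and 3 higher after the level correction, with medians of -0.73 before and -0.28 after it. The IGF axis had 2 of 12 higher and 2 lower, the former being 1 without DKO replicate 1 or 3 and 0 without any other library, the latter 4 without WT replicate 1, with Igfbp2, a binding protein of the growth factors, at 65.3, 37.9 and 38.4 RPKM in WT against 13.03, 31.8 and 10.8 in DKO. Cell junctions had 3 of 25 higher and 4 lower, the 3 being 1 without DKO replicate 1, WT replicate 1 or WT replicate 2. Replication-dependent histones had 1 of 18 lower, which became 3 on leaving out DKO replicate 1, 4 on leaving out DKO replicate 2 and 0 on leaving out any other library. Stromal fibroblast markers had 2 of 13 higher and 2 lower, 0 and 0 under every rescaling. The former were 1 without DKO replicate 1 or 2 or WT replicate 2 and 0 without WT replicate 1, and the latter 1 without DKO replicate 1 or 3 or WT replicate 1 or 2. Epithelial markers had 2 of 13 higher, 1 of them without WT replicate 2 or 3, and 2 lower, 1 of them without WT replicate 1 or 3. Lymphatic endothelial markers had 1 of 7 lower and 0 higher (2 and 1 without DKO replicate 1). Glial and neuronal markers had 2 of 7 lower (1 without DKO replicate 2 or 3 or WT replicate 2 or 3) and 0 higher (2 without DKO replicate 2). Adipocyte markers had 2 of 4 lower (1 without DKO replicate 1 or 2 or WT replicate 1) and 0 higher. Alg3 shares exon bases with a neighbour and is uncertain.

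**Figure D5:**
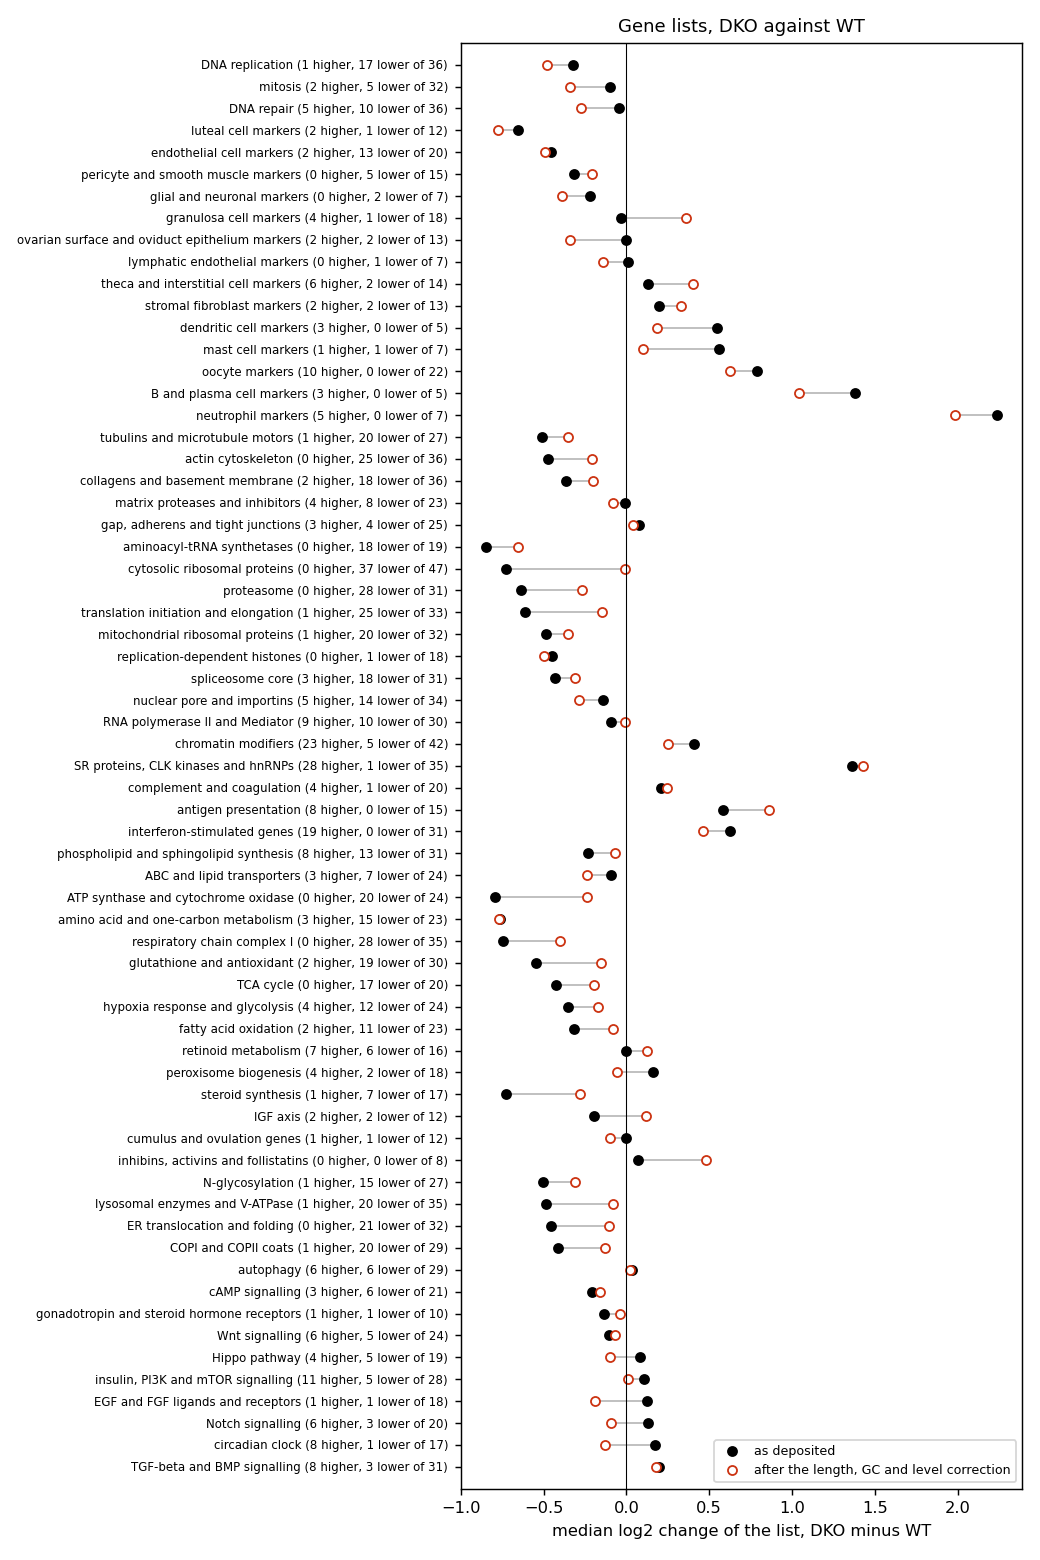
Median log2 change, DKO minus WT, of each gene list as deposited (black) and after the correction for exon length, GC content and level (open red), with the counts of called genes in the label. Cytosolic ribosomal proteins move from -0.73 to -0.01, while SR proteins (1.36 and 1.43) and amino acid metabolism (-0.76 and -0.77) stay in place.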

How the data were processed

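The table holds RPKM values of 54838 genes in 9 libraries, deposited by the authors; per the submitters' processing notes, reads were handled with DESeq2 1.2.8, HTSeq 0.5.4p5, HISAT2 2.1.0 and cutadapt, with mm10 as the build, and the strand setting of the counting is not given in the sources used here. Dividing each value by the worth of a single read gave whole reads for 97.8% of values (within 0.01 read or a relative 1e-06), which supplied the library totals of 40.1 to 59.4 M reads and a limma-voom alternative. Gene classes, exon length, GC content and exon bases shared with other genes came from the matched GENCODE M21 annotation (54809 genes), and promoter windows from RefSeq.

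Values were tested as log2(RPKM + 0.5) with limma 3.58.1 in R 4.3.3 (lmFit and eBayes with trend, all 9 libraries in 1 fit), over the 18886 genes of any class that reached RPKM 0.5 in 3 or more libraries. Fold changes are on that scale, which understates the change of low genes. P-values were adjusted by Benjamini-Hochberg over all genes tested, and adjusted p under 0.05 is a call. On data simulated for the 18400 genes of the test's step, 80% of 100 changes of 2-fold and 94% of 100 of 4-fold were recovered, with 16 false calls in all. Only these changes were simulated, without a shift of RNA class, level, exon length or GC content between groups. In the data 56.7% of all genes tested were called, so these rates do not carry over to DKO against WT.

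Genes and lists were chosen with earlier results of these data known. The text names the targeted genes, the 12 largest changes in each direction among genes called under every rescaling without overlap and with mean RPKM of at least 1, the 6 in each direction with mean RPKM of at least 50, and up to 3 genes per list with the smallest adjusted p; of these it describes a selection, without clone-named genes, genes of the cholesterol and macrophage lists and genes that share most of their exon bases. Named after their values were seen were Aars, Aldh18a1, Arntl, Asns, Bhlhe40, Ciart, Clock, Cry2, Dbp, Emcn, Gclc, Gdf9, Got1, H2-K1, Iars, Kars, Kmt2a, Kmt2d, Mat2a, Nr1d1, Nr2f2, Oas2, Ogt, Per1, Per2, Ptgfr, S100a8, Sf3a2, Sf3b4, Sfrp4, Tubb3, Vwf and Zp3. Alternatives covered the scaling, the pseudocount, the filter, array weights, limma-voom, a fit of the 6 WT and DKO libraries, each library left out, the replicate block, and the exon length and GC correction with and without level. All 37 mitochondrially encoded genes are listed at 0 in every library and were not analysed. Some genes are not reported here.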

Additional observations from a re-analysis of the deposited data

How the results depend on the processing

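The counts of higher and lower genes were 4068 and 2962 as reported. Scaling moved them most. With TPM over protein-coding genes they were 6399 and 1024, with the plain total of reads 6137 and 1217, and with equal medians 2923 and 4519. TMM gave 3546 and 3702, the exon length and GC correction 3225 and 4318, and limma-voom on recovered reads 4079 and 3021. A fit of the 6 WT and DKO libraries gave 3502 and 2251. Leaving out each replicate in turn gave 3645 to 4187 higher and 2473 to 3103 lower genes, and 2069 to 2448 higher and 676 to 868 lower under every rescaling. Of the named genes, Nr3c1, the glucocorticoid receptor, reversed to -0.0593 with the exon length and GC correction and to -0.0227 with level added, and Pex7, a peroxisome import receptor, reversed to -0.0406 with level added; the corrections change the value of each gene by its length, GC content and level. Replicate numbers did not pair the samples: same-numbered WT and DKO libraries had deviations that correlated at -0.32, -0.16 and 0.16. With the replicate block 3791 genes rose and 2666 fell, and 2242 and 776 under every rescaling. Genes with few reads are limited most by depth, the median gene having 1447.5 reads per library.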
